A study of Bos taurus with 16 samples.

Results

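FOS, JUN and EGR1 are immediate early genes, and all 3 of them were found by their Ensembl identifiers among the 27607 genes of each deposited table. They were chosen by identifier and not by their counts, as ENSBTAG00000004322 for FOS, ENSBTAG00000004037 for JUN and ENSBTAG00000010069 for EGR1. No table used here pairs these identifiers with symbols, so the 3 names rest on the identifiers alone. All 3 genes passed the filter on low counts, together with 13262 others.

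Whole blood came from 16 crossbred beef steers on 1 forage-based ration, 8 with the highest and 8 with the lowest residual feed intake (RFI), which is the feed an animal eats beyond what its weight and gain predict. Each steer gave 1 library, made from blood drawn before the morning feeding on 3 sampling days and pooled per steer, so a level is an average over these days. The blood was drawn into heparin tubes and, per the methods of the study, subsamples were moved at once to a reagent that lyses the cells and stabilizes RNA. The library kit was one for depletion of ribosomal RNA and reduction of globin RNA, specified for human, mouse and rat. Steers 9 to 16 are labelled high RFI and carry titles that begin with HFE, and steers 1 to 8 are labelled low RFI with titles that begin with LFE. The read numbers that the study lists per library follow the counts of these libraries when its group names are exchanged and not when they are kept. Spearman rho within each list of 8 was 0.976 for both lists with the names exchanged. With the names kept it was -0.214 for the high-RFI list and -0.190 for the low-RFI list. Every direction below is therefore that of the sample labels, and would have the opposite sign under exchanged names.

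Immediate early genes are switched on within minutes of a stimulus, from transcription factors that are already in the cell, and their mRNA is short-lived. FOS and JUN proteins pair through a leucine zipper to form AP-1, a transcription factor that acts on growth, stress and inflammatory genes, and EGR1 is a zinc finger transcription factor induced through the MAP kinase pathway and serum response factor. In blood they respond to activation of white cells, and handling of blood after drawing is known to raise them. Whole blood mixes many cell types, so a change in the share of a cell type and a change of RNA per cell cannot be told apart. Markers of blood cell types, like the other immediate early genes, were not analysed here, because their symbols could not be paired with identifiers.

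The libraries held between 4.80 and 12.2 M counts on genes. The size factors, recovered from the deposited raw and normalized counts, ran from 0.622 to 1.46. FOS received between 77 and 600 raw counts per steer, JUN between 212 and 736, and EGR1 between 59 and 306. Counting error alone was therefore at most 11.4% of the count for FOS, 6.87% for JUN and 13.02% for EGR1. It made up 3.27%, 3.70% and 5.26% of the variance between steers of a group for FOS, JUN and EGR1, so depth limits these values little. These figures cover counting error only.

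JUN was the most abundant of the genes on the FPKM scale, which is per gene length. Its level was 30.9 ± 8.42 FPKM over all steers (SD, n = 16), above 87.9% of the 21016 genes with a count. FOS followed with 14.04 ± 5.77 FPKM (SD, n = 16), above 74.9% of these genes. EGR1 was lowest with 3.92 ± 1.77 FPKM (SD, n = 16), above 53.0% of these genes. The lengths behind these FPKM were 1950 bp for JUN, 2130 bp for FOS and 3655 bp for EGR1. The whole spans of these symbols in RefSeq on ARS-UCD2.0 are 2048 bp, 3427 bp and 2844 bp. The length used for EGR1 thus exceeds its RefSeq span, and its FPKM and ratios depend on that length. The cause was not tested. The order of the levels held in each library, as JUN exceeded FOS in 16 of 16 steers and FOS exceeded EGR1 in 16 of 16.

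**Figure D1:**
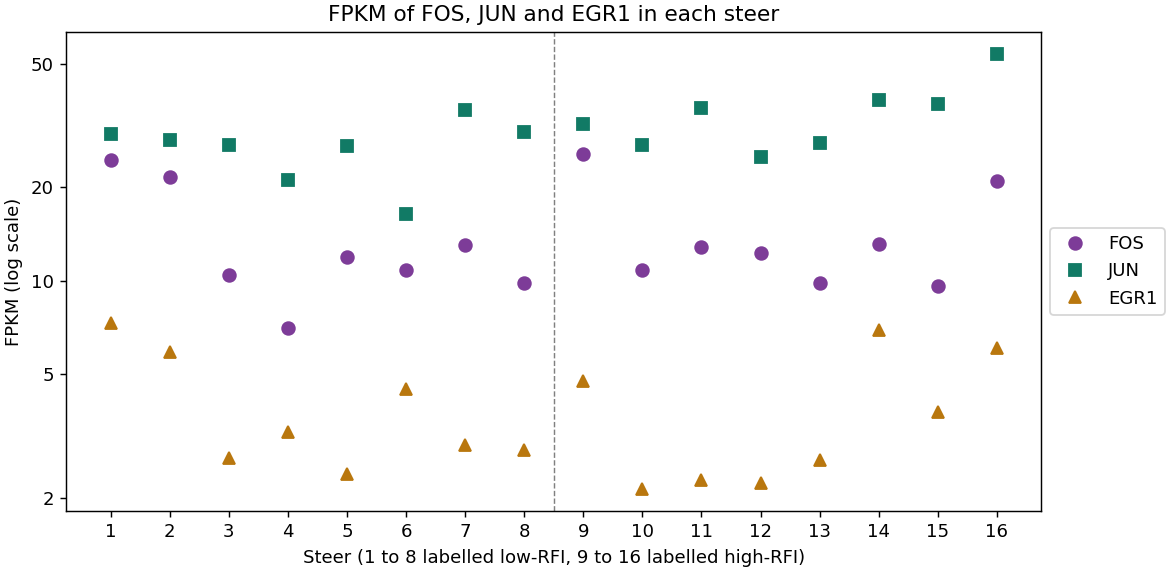
FPKM (log scale) of FOS, JUN and EGR1 in each of the 16 steers, 1 point per gene and steer, with steers labelled low-RFI left of the dashed line and those labelled high-RFI right of it. JUN lies above FOS and FOS above EGR1 in every steer, and FOS comes nearest to JUN in steers 1, 2 and 9.

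FOS, the AP-1 subunit that is nearly silent in many resting cells, separated 4 steers from the other 12. FOS reached 452 normalized counts in steer 9, labelled high-RFI, while steer 1, labelled low-RFI, had 433, steer 2, labelled low-RFI, had 381, and steer 16, labelled high-RFI, had 369. The other 12 steers had at most 231, and no steer lay between 231 and 369. Both labels were found on each side of this gap, which was 0.68 wide on the log2 scale against a whole range of 1.87. The lowest steer was steer 4, labelled low-RFI, with 124 normalized counts, and the highest steer had 3.65 times as many.

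The RFI groups overlapped almost fully in FOS. Steers labelled high-RFI ranged from 170 to 452 normalized counts with a median of 221, and steers labelled low-RFI from 124 to 433 with a median of 201. The group means were 254 ± 102 (SD, n = 8) and 241 ± 108 (SD, n = 8). On the log2(normalized count + 1) scale the difference of high-RFI minus low-RFI was 0.10, with a 95% interval from limma of -0.44 to 0.64, or 0.736 to 1.56 times on the linear scale. An exact two-sided permutation test, which exchanges the labels of the steers in every possible way, gave p = 0.722. The log2 fold change from the quasi-likelihood test of edgeR was 0.06 (adjusted p = 0.999). The interval thus reaches to a 1.56-fold difference, which these steers do not exclude. The sign turned without steer 4, 9 or 16, when the edgeR log2 fold change was -0.03, -0.11 and -0.03.

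EGR1, which is induced by many of the same signals as FOS, also had a tail of high steers. Steer 1, labelled low-RFI, had 221 normalized counts of EGR1, steer 14, labelled high-RFI, had 210, steer 16, labelled high-RFI, had 184, steer 2, labelled low-RFI, had 178, and steer 9, labelled high-RFI, had 144. The remaining steers had between 64.5 and 135. The highest steer was thus labelled low-RFI, and 3 steers labelled high-RFI were below every steer labelled low-RFI.

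The groups did not separate in EGR1 either. Steers labelled high-RFI ranged from 64.5 to 210 normalized counts with a median of 97.2, and steers labelled low-RFI from 72.0 to 221 with a median of 93.7. The group means were 116.7 ± 57.0 (SD, n = 8) and 120 ± 53.6 (SD, n = 8). The difference on the log2(normalized count + 1) scale was -0.07, with a 95% interval from limma of -0.70 to 0.55 and an exact permutation p of 0.810. The edgeR log2 fold change was -0.06 (adjusted p = 0.999). The sign turned when any 1 of steers 1, 2, 10, 11, 12 and 13 was left out, with an edgeR log2 fold change between 0.0034 and 0.13. Limma voom with sample quality weights gave -0.39 (adjusted p = 0.861).

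JUN, the AP-1 subunit that many cells hold at rest, varied least between steers. Its group difference was the largest of the 3 in edgeR, though not in limma voom with sample quality weights, where the log2 difference was 0.18 for JUN and -0.39 for EGR1. Steers labelled high-RFI had 405 to 868 normalized counts with a median of 550, and steers labelled low-RFI had 264 to 573 with a median of 450. Steers 16, 14, 15 and 11, with 868, 616, 600 and 583 normalized counts, were labelled high-RFI and lay above every steer labelled low-RFI. Steers 6 and 4, labelled low-RFI, with 264 and 341 normalized counts, lay below every steer labelled high-RFI. The ranges of the other 10 steers overlapped.

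The JUN difference did not pass the test over all genes. The mean was 560 ± 148 normalized counts (SD, n = 8) under the high-RFI label and 435 ± 94.3 (SD, n = 8) under the low-RFI label. The difference on the log2(normalized count + 1) scale was 0.36, with a 95% interval from limma of 0.02 to 0.70, and the exact permutation test gave p = 0.0586. The edgeR log2 fold change was 0.36 (unadjusted p = 0.0404, adjusted p = 0.942), and that of DESeq2 was 0.36 ± 0.17 (SE, adjusted p = 0.996). By its edgeR p, JUN stood at place 561 of the 13265 genes tested. JUN was 1 of 693 genes, 5.22% of those tested, with an unadjusted edgeR p under 0.05, and FOS and EGR1 were not among these. At FDR 0.05 edgeR called 0 genes, 0% of those tested, and DESeq2 called 7 of 21016, or 0.0333%, and none of FOS, JUN and EGR1 was called by either.

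The JUN difference depended on single steers of either label for part of its size. Without steer 16 the edgeR log2 fold change was 0.24, and the exact permutation test gave p = 0.122. Without steer 12, also labelled high-RFI and the lowest of its group, the exact permutation p was 0.0260. Without steer 6 or steer 4, both labelled low-RFI, the edgeR log2 fold change was 0.27 and 0.31. Without steer 7, which had the most JUN under that label, it rose to 0.42. The unadjusted edgeR p was under 0.05 in 8 of the 16 fits that leave out 1 steer. Scaling by the total count on genes gave a log2 fold change of 0.30, with the median of all genes at -0.05. The sign was positive in all 16 fits that leave out 1 steer and under all 8 alternatives that keep every steer. These fits share the same steers and are not independent. Over the 8 alternatives the unadjusted p ran from 0.0317 with DESeq2 to 0.196 with limma voom and sample quality weights.

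**Figure D2:**
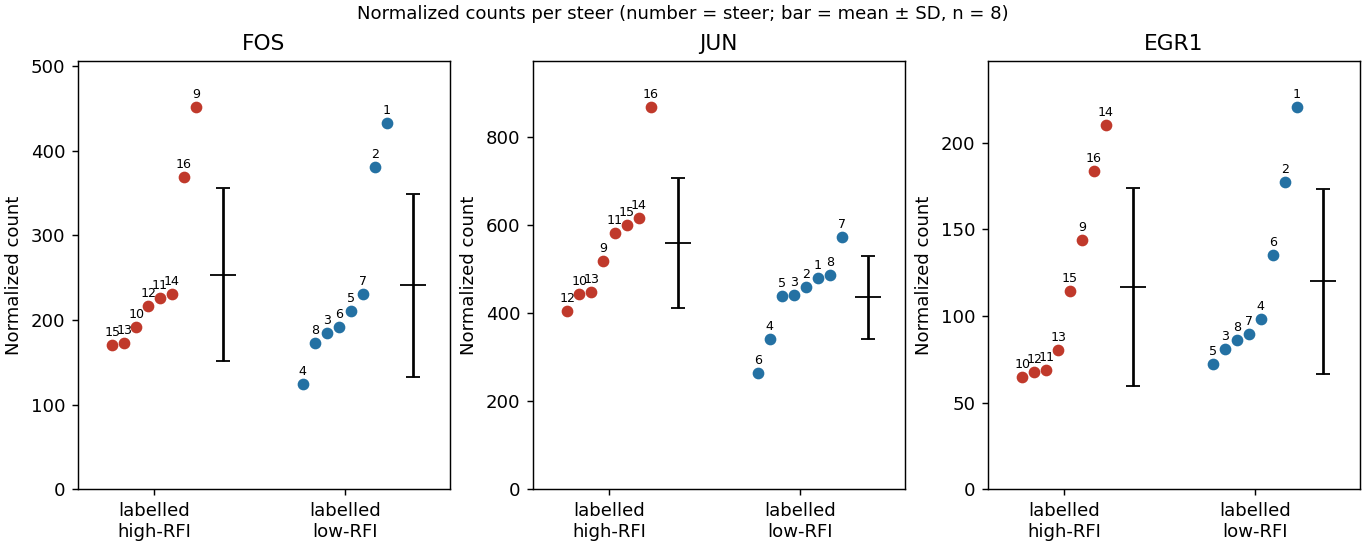
Normalized counts of FOS, JUN and EGR1 in steers labelled high-RFI (red) and low-RFI (blue), 1 point per steer marked with its number and sorted within the group, with the mean ± SD at the side (n = 8). The groups overlap in each gene, and 4 steers labelled high-RFI lie above every steer labelled low-RFI in JUN.

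JUN counts were set beside the measures of each library, since such measures can move with a level. Steers 14, 15 and 16, the highest in JUN, had a count on 17045, 17006 and 17032 genes, fewer than every other steer but steer 4. Over 16 steers JUN had a Pearson r of -0.40 with the number of genes with a count (permutation p = 0.120, Spearman rho = -0.353, permutation p = 0.179). Without steers 1 and 4, the farthest from the median, r was -0.75 (permutation p = 0.00211). Steer 4, left out there, goes against this trend. It had a count on 16891 genes, the fewest, and only 341 normalized counts of JUN. JUN had r = 0.38 with the first principal component of all genes tested, which held 17.2% of the variance (permutation p = 0.141, rho = 0.429, permutation p = 0.0997). Without steers 14 and 16 this r was 0.62 (permutation p = 0.0193). Of these, steer 14 goes against the trend, with the lowest value on the component (-0.648) and 616 normalized counts of JUN. Steer 16 goes with it, with the highest value (0.480) and the highest JUN. For FOS and EGR1 the coefficients with these measures and with the counts on genes lay between -0.27 and 0.27, and r lay between -0.41 and 0.05 without the 2 farthest steers. JUN had r = -0.31 with the counts on genes (permutation p = 0.233). None of the 18 coefficients over 16 steers, which form this family, passed adjustment, the lowest Benjamini-Hochberg adjusted p being 0.650. The coefficients without the 2 farthest steers lie outside this family, and their permutation p are unadjusted. The part of these measures in the JUN difference was not tested.

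The ratio of a pair of genes within a library does not depend on the size factor. FOS stood at between 0.259 and 0.829 times the FPKM of JUN, with a median of 0.386, lowest in steer 15 and highest in steer 1. FOS stood at 1.88 to 5.61 times the FPKM of EGR1, with a median of 3.69, lowest in steer 14 and highest in steer 11. JUN stood at 3.66 to 15.8 times the FPKM of EGR1, with a median of 10.01, lowest in steer 6 and highest in steer 11. No ratio differed between the RFI groups beyond the spread. The difference of high-RFI minus low-RFI in the log2 ratio of (raw count + 1) was -0.26 for FOS over JUN (95% interval -0.81 to 0.29, exact permutation p = 0.339). It was 0.18 for FOS over EGR1 (95% interval -0.36 to 0.71, exact permutation p = 0.490) and 0.43 for JUN over EGR1 (95% interval -0.22 to 1.08, exact permutation p = 0.174). The adjusted p over the 3 ratios was 0.490 for each.

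The steers at the top of FOS were largely those at the top of EGR1. The 5 steers highest in FOS, steers 1, 2, 9, 14 and 16, were the 5 highest in EGR1, and 3 of them are labelled high-RFI and 2 low-RFI. Of the 5 steers highest in JUN, 2 were among these, steers 14 and 16. The full match of FOS with EGR1 rests on close values at the cut. In FOS, steer 14 had 230.9 normalized counts and steer 7, next below, had 230.1, with counting errors of 7.05% and 6.68%. In EGR1, steer 9 had 143.8 and steer 6, next below, had 135.2, with counting errors of 8.57% and 7.11%. The number of 5 was chosen after the values were seen, and other numbers gave another picture. The 4 highest of FOS and of EGR1 shared 3 steers, and the 8 highest of FOS shared 5 with those of EGR1 and 6 with those of JUN. Steers 1, 2 and 9 had 478, 460 and 517 normalized counts of JUN, near its median of 469 over all steers. Steers 14 and 16 had 616 and 868, its highest values.

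The correlation of FOS with EGR1 passed adjustment by Pearson r and not by Spearman rho. Its pass was lost when any 1 of 11 steers was left out. Over 16 steers, on the log2(normalized count + 1) scale, Pearson r was 0.64 (permutation p = 0.00759, adjusted p = 0.0455) and Spearman rho 0.479 (permutation p = 0.0620, adjusted p = 0.138). The p were adjusted over the 6 coefficients of the 3 pairs. Leaving out 1 steer at a time gave r from 0.55 to 0.70. The adjusted permutation p rose above 0.05 in 11 of the 16 cases, to 0.155 without steer 1. The lowest r were 0.55, 0.59 and 0.60, without steers 1, 16 and 2. In some of the 11 cases r was not lower than with all steers, as without steer 12 (r = 0.66, adjusted permutation p = 0.0519). Without steers 1 and 9, the farthest from the median of FOS, r was 0.52 and rho 0.266 (permutation p = 0.0544 and 0.359). Within the 12 steers below the gap r was 0.0185 and rho -0.140 (permutation p = 0.9499 and 0.666). This split was made on FOS itself after its values were seen. Leaving out the highest values of a gene narrows its range, which can lower r. Its part in this fall of r was not tested. The 4 steers above the gap are too few for a coefficient of their own. Among the 8 steers labelled high-RFI r was 0.55 and rho 0.524 (exact permutation p = 0.164 and 0.197). Among the 8 labelled low-RFI r was 0.76 and rho 0.500 (exact permutation p = 0.0313 and 0.216). Adjusted over the 6 coefficients of each group, these permutation p were 0.295 for both under the high-RFI label. Under the low-RFI label they were 0.188 for r and 0.540 for rho.

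JUN was not shown to vary with FOS or EGR1. With FOS it had r = 0.42 (permutation p = 0.109, adjusted p = 0.138) and rho = 0.412 (permutation p = 0.114, adjusted p = 0.138), and r = 0.53 without steers 1 and 9 (permutation p = 0.0558). Within the 12 steers below the gap in FOS, r of FOS with JUN was 0.44 (permutation p = 0.159). With EGR1 it had r = 0.28 (permutation p = 0.307, adjusted p = 0.307) and rho = 0.412 (permutation p = 0.115, adjusted p = 0.138), and r = 0.32 without steers 6 and 16 (permutation p = 0.272). Within steers labelled high-RFI, r of JUN with EGR1 was 0.73 (exact permutation p = 0.0363, adjusted over the 6 coefficients of that group 0.109) and rho 0.833 (exact p = 0.0154, adjusted p = 0.0923). Within steers labelled low-RFI, r was -0.11 (exact permutation p = 0.817) and rho 0.0238 (exact p = 0.977). The difference between these coefficients was not tested.

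**Figure D3:**
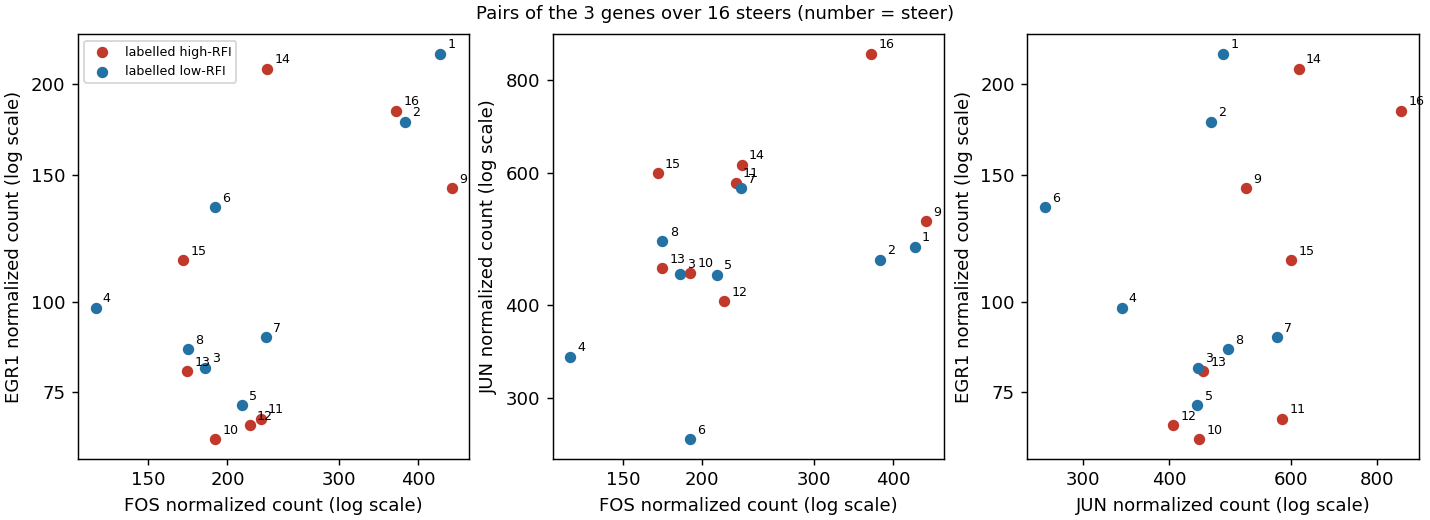
Normalized counts (log scales) of each pair of FOS, JUN and EGR1, 1 point per steer marked with its number, red for steers labelled high-RFI and blue for those labelled low-RFI. Steers 1, 2, 9 and 16 lie apart at the right in FOS and are among the 5 highest in EGR1, with steer 14, which has 231 normalized counts of FOS and 210 of EGR1. Steer 7 comes next below steer 14 in FOS with 230 normalized counts.

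The position of each gene among all genes tested describes how close these relations were. Of 13264 other genes, 26 had a higher r with FOS than EGR1 had, and 83 had a higher r with EGR1 than FOS had. The highest r of any gene was 0.79 with FOS and 0.84 with EGR1, and the median gene stood near 0. JUN took place 607 among the genes most like FOS, with 4.57% of genes above it, and place 2699 among those most like EGR1. Among the genes most like JUN, FOS took place 1409 and EGR1 place 2817. FOS and EGR1 thus lay within the first 1% of each other's lists, and JUN did not lie within the first 1% of either. All these coefficients share the same 16 libraries.

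Among the genes that are not members, the highest mean of the 3 coefficients with FOS, JUN and EGR1 was 0.63, for ENSBTAG00000011001, which has a length of 3077 bp. Its coefficients were 0.61 with FOS, 0.72 with JUN and 0.55 with EGR1 over 16 steers. It had 80.2 normalized counts in steer 16, the highest, and 27.7 in steer 13, the lowest, with a median of 37.1. The next was ENSBTAG00000048323, with a length of 753 bp and coefficients of 0.54 with FOS, 0.62 with JUN and 0.72 with EGR1. It had 35.4 normalized counts in steer 16, the highest, and 6.81 in steer 11, the lowest, with a median of 14.5. The median of this mean over 13262 genes was -0.01 and its 95th percentile 0.38. Both genes were selected for this likeness, and both were highest in the steer that was also highest in JUN, so their coefficients are a description only.

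FOS and EGR1 varied more between steers of a group than most genes did. The SD of log2(normalized count + 1) around the group means was 0.55 for FOS, 0.35 for JUN and 0.63 for EGR1, against a median of 0.25 over the 13265 genes tested. FOS exceeded 88.3% of these genes, EGR1 91.9% and JUN 69.7%. The biological coefficient of variation of edgeR was 0.365 for FOS, where the trend at its abundance was 0.196. It was 0.410 for EGR1 with a trend of 0.234, and 0.228 for JUN with a trend of 0.193. JUN thus lay near the spread usual for genes of its abundance, and FOS and EGR1 above it.

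**Figure D4:**
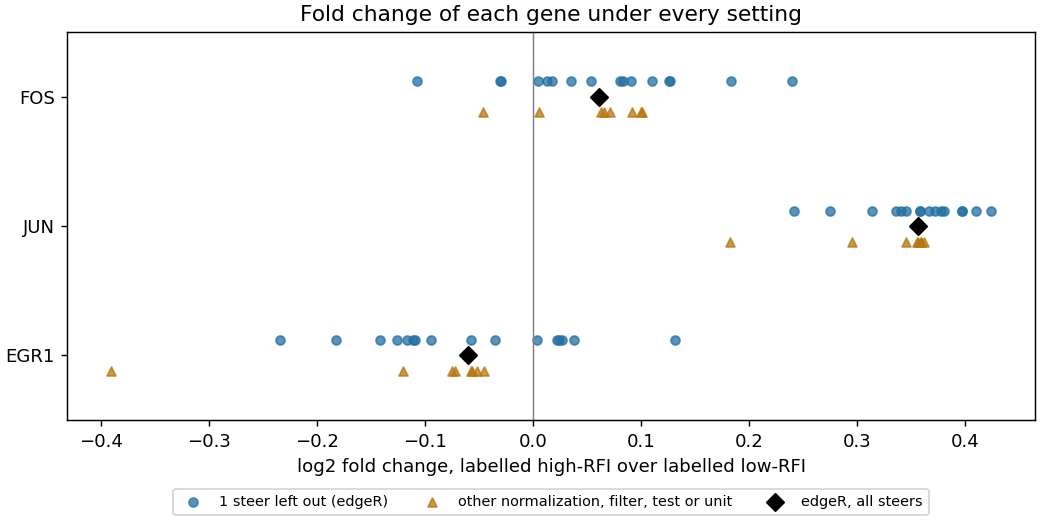
The log2 fold change of steers labelled high-RFI over those labelled low-RFI for FOS, JUN and EGR1, with edgeR on all steers (diamond), with 1 steer left out in edgeR (circles) and under the 8 other normalizations, filters, tests and units (triangles). The values of JUN stay above 0, and those of FOS and EGR1 lie on both sides of it.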

How the data were processed

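Per the submitters' processing notes and the study's methods, the authors trimmed reads with Trimmomatic 0.39 and aligned them with HISAT2 2.2.1 to ARS-UCD1.2. SamTools was used to mark duplicates, and GenomicAlignments gave the count of each gene. The annotation, the use of marked duplicates and strand are not given in the sources used here, so reads of overlapping genes cannot be told apart. In RefSeq on ARS-UCD2.0, which can differ from the annotation used for the counts, 0 other genes overlap each of FOS, JUN and EGR1. The authors deposited raw counts per gene. Normalized counts were deposited as well, a signal obtained by dividing each count by the size factor of its steer. The deposited FPKM are the normalized counts divided by gene length, scaled by size factor and not by the total of a steer, and the lengths were recovered from them.

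Raw counts were compared with edgeR 4.0.16 (quasi-likelihood, TMM, filterByExpr, Benjamini-Hochberg adjustment over all genes tested). DESeq2 1.42.0 and limma 3.58.1 on log2(normalized count + 1) or log2 FPKM were alternatives, in R 4.3.3. Intervals of differences came from limma, those of ratios from the pooled variance of both groups. For a single gene or ratio, an exact permutation test (two-sided) was used. Correlations over 12 or more steers were tested with 100000 permutations and within groups with all permutations. The statistical code was tested on simulated data. Group and replicate number came from the labels, and samples are separate steers. Alternatives were other normalizations, filters, tests and units and leaving out each steer. Scaling by the total count and leaving out the 4 steers above the gap in FOS were added after the data were examined, as was the position of steers in the ranking. The members and lists were chosen with earlier results of these data known. The genes named were the 3 members and the 2 other genes with the highest mean correlation with them. The lists of other immediate early genes and of blood cell markers could not be used, because 0 of the 27607 identifiers are paired with a symbol in the RefSeq table of ARS-UCD2.0.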

Additional observations from a re-analysis of the deposited data

Results flagged for a closer look

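For each of FOS, JUN and EGR1, their ratios and the depth, the extreme steers of each RFI group were examined with Dixon's test of the gap to the nearest steer, relative to the range. The test was run on untransformed counts and ratios, and not on the log2 scale used for the comparisons. Of these 14 sets of 8 steers, 2 held a steer past the 95% limit, and chance flags about 1 set in 20. The sets share genes and steers, so they are not independent, and the flags only mark steers to look at. JUN reached 868 normalized counts in steer 16, labelled high-RFI, and steer 14, which came nearest under the same label, had 616 (relative gap 0.544). Steer 16 had 736 raw counts of JUN, and it was also the highest steer of both genes most like the members. Steer 9, labelled high-RFI, had 0.799 times as much FOS as JUN in FPKM, and the nearest steer under that label had 0.491 (relative gap 0.572). Its 452 normalized counts of FOS were the highest of all steers, while its 517 of JUN were the sixth. Without steer 9 the difference of the log2 ratio of FOS over JUN between the groups was -0.40, and without steer 1, labelled low-RFI with a ratio of 0.829, it was -0.14. Causes were not tested.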

How the results depend on the processing

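No paired analysis was possible because the groups share no replicate number. FOS, JUN and EGR1 stayed short of FDR 0.05 under all 8 alternatives that keep every steer and in all 16 fits without 1 steer, with adjusted p from 0.798 to 0.99995. The log2 fold change of FOS was -0.046 with limma voom and sample quality weights, and from -0.11 to 0.24 without 1 steer, against 0.06. That of EGR1 ran from -0.39, with the same weights, to -0.05 over the alternatives and from -0.23 to 0.13 without 1 steer, against -0.06. That of JUN ran from 0.18 to 0.36 and, without 1 steer, from 0.24 to 0.42, against 0.36. The number of genes past FDR 0.05 was 0 in edgeR, 7 with DESeq2 and 13 with limma voom and sample quality weights, and without 1 steer from 0 to 25, with 25 without steer 14 and 2 without steer 16. The r of FOS with EGR1 was 0.0185 without the 4 steers above the gap in FOS (permutation adjusted p = 0.9499). It was from 0.55 to 0.70 without 1 steer, with permutation adjusted p from 0.0206 to 0.155, above 0.05 and so no longer significant in 11 of these 16 fits. It was lowest without steer 1. The r of FOS with JUN (0.29 to 0.49) and of JUN with EGR1 (0.11 to 0.45) without 1 steer were lowest without steer 16. The ratios kept their sign and missed the threshold throughout. The cause was not tested where a value moved. The depth leaves counting errors of at most 13.02% on a count of these genes, and the spread between 8 steers a group sets the limit.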
